A study of Mus musculus with 2 samples.

Results

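The small leucine-rich proteoglycans are a family of secreted matrix proteins, and 10 of their genes were followed here: Dcn, Bgn, Aspn, Lum, Fmod, Prelp, Kera, Omd, Ogn and Podn. Their members were taken as all probe sets of the array whose only gene symbol in the platform annotation is one of these names, which gave 21 probe sets of 10 genes among 18193 named genes. The RNA came from the esophagus of BALB/c mouse embryos at E18.5. One group was wild type and the other was labelled null for both Myf5 and Myod, the factors that set cells on the path to skeletal muscle, and nothing else is stated to differ between them. Each group had 1 array, so no value has a replicate, the genotypes could not be tested against each other, and p-values are left out. How many embryos were pooled for each RNA sample is unstated.

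A small leucine-rich proteoglycan has a core of leucine-rich repeats, a curved fold that lies along collagen fibrils and limits how thick they grow. Some members carry chondroitin or dermatan sulfate chains and others keratan sulfate, while a few carry no such chain. In the gut wall they are made by fibroblasts and by other mesenchymal cells, and several of them also bind growth factors of the TGF-beta family.

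The log2 ratios of the family pointed both ways, with 5 above 0 and 4 below it. With 1 array per group, a shared shift cannot be told from a divided one. Of the 9 genes that could be measured, 1 (Podn, 2.64-fold) passed 2-fold upward on the null-labelled array and 0 passed it downward, where 6.01% and 5.36% of all 13315 measured genes passed the same thresholds. With 9 genes, these counts lie near the background. Bgn read 1.77-fold lower and Aspn 1.86-fold lower, each at its probe set of highest mean signal, and both were lower at all their others. Dcn, Lum and Kera, which lie next to each other on chromosome 10, read 1.19-fold, 1.11-fold and 1.34-fold higher. Each of these is smaller than the 1.47-fold spread between probe sets given below, and the next neighbour, Epyc, read 1.1-fold lower. The median log2 ratio of null-labelled over wild type was 0.14 for the 9 genes, against 0.086 for all measured genes.

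A gene counted as measured when its signal reached 489.1 on at least 1 array, the median signal with control probes left out and the arrays pooled, and signals below this limit were raised to it before a ratio was taken. Where 1 array lay below it, the fold is a bound and is written "at least". On the wild-type array 44.6% of probe sets reached it, and on the null-labelled array 55.4%. The only error at hand is how far the log2 ratios of probe sets for the same gene lie apart. Their pooled SD was 0.56 (5455 genes with 14307 probe sets), a 1.47-fold difference, and it holds nothing of the variation between embryos. The targeted genes were read first. Myf5 had signals of 4072 and 495.6 (wild type first, as in every pair of signals here), while the brighter Myod1 probe set read 2001 and 1698. The labelled loss was thus seen at Myf5 and not at Myod1, and where either probe set lies relative to the deletions is unstated. The 3' to 5' signal ratio of the beta-actin control was 12.6 and 14.2, that of the Gapdh control was 10.5 and 6.96, and the part of this in the results was not tested.

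Promoter sequences are shown for Bgn and Aspn, the genes that read lower at every probe set, and for Podn, the gene past 2-fold, because Myf5 and Myod1 bind the E-box, CANNTG. RefSeq's promoter table for GRCm38.p6 held 8 of the 10 genes, with 9 start sites. Each sequence is the 250 bases before the start, read 5' to 3' on the gene's own strand, with E-boxes in capitals. They lie at chrX:73483351-73483600 (plus strand) for Bgn, chr13:49544193-49544442 (plus strand) for Aspn and chr4:108031955-108032204 (minus strand) for the first listed start of Podn.
Bgn: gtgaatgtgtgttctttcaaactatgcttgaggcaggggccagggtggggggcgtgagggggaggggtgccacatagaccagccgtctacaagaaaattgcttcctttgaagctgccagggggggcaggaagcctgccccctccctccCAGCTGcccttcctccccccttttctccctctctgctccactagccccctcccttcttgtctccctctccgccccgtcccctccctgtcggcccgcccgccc
Aspn: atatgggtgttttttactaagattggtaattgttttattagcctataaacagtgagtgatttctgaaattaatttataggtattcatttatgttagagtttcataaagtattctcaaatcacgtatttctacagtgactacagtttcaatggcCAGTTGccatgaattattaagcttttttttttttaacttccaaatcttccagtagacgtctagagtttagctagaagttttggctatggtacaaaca
Podn: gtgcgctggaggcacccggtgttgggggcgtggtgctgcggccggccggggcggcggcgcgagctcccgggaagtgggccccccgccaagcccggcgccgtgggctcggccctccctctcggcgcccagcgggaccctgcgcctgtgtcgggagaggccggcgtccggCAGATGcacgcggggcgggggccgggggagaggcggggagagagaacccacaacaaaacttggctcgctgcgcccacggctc
Each of these windows holds 1 E-box, of the form CAGCTG in Bgn, CAGTTG in Aspn and CAGATG in Podn, at 102, 97 and 82 bases before the start. The base composition differs widely, with 64.4% G and C in Bgn, 30% in Aspn and 78% in Podn, against a median of 52.4% over all promoters. The Aspn window has 2 matches to TATAAA, and the Bgn and Podn windows have none but hold 3 and 2 matches to GGGCGG. On either strand, CANNTG was found in 6 of the 9 windows of the family and in 66.2% of the 32851 windows of the same length in the table. CAGCTG, one of its forms, was found in 3 of 9 (Bgn, Ogn and the second start of Podn) against 13.0%, TATAAA in 2 of 9 (Aspn and Ogn) against 12.4%, and GGGCGG in 2 of 9 against 32.7%. CAGGTG, another form of the E-box, was found in 1 of 9 against 17.2%, and CCAAT in 3 of 9 against 33.8%. The windows of Kera, Prelp and Omd hold no E-box. A match is a description of the letters and not a binding site.

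Class I members have the closest cores. Bgn and Aspn read lower, while Dcn at its brighter probe set read higher by less than 1 SD of the spread between probe sets. Dcn, decorin, carries a single chondroitin or dermatan sulfate chain and is known to bind TGF-beta. Its brighter probe set read 36788 and 43634, 1.19-fold higher (log2 ratio 0.25). Its other probe set read 292.7 and 861.9, at least 1.76-fold higher, so both point the same way, with the second below the limit in wild type. Bgn, biglycan, has a pair of chains and is the nearest relative of decorin. Its 3 probe sets read 10755, 12245 and 11187 in wild type and, in the same order, 4322, 6917 and 6535 in the null-labelled sample. That is 2.49-fold, 1.77-fold and 1.71-fold lower, so the direction was shared and the size was not. The mean of their log2 ratios was -0.97 with an SD of 0.30 between probe sets. Aspn, asporin, has a run of aspartates and usually no chain. Its 2 probe sets read 6628 and 11005 in wild type and 5173 and 5903 in the null-labelled sample, 1.28-fold and 1.86-fold lower. The sizes differ although the direction is shared, with log2 ratios of -0.36 and -0.90. At the brightest probe sets the log2 ratio of Bgn was below that of Dcn by 1.07 and that of Aspn by 1.14, where the spread between probe sets gives an SD of 0.79 for such a difference.

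Class II holds the members that mostly carry keratan sulfate. Lum, lumican, which keeps collagen fibrils evenly spaced in cornea and skin, had 1 probe set that read 15119 and 16710, 1.11-fold higher. Kera, keratocan, best known from the cornea, read 3793 and 5086, 1.34-fold higher, and its signal lay well above the limit on both arrays. Both differences are within 1 SD of the spread between probe sets. Fmod, fibromodulin, a regulator of fibril growth and cross-linking in tendon, had 6 probe sets. Its brightest read 802.8 and 1229, 1.53-fold higher. Of the others, 3 lay above the limit on the null-labelled array alone, from 118.1, 205.4 and 298.3 in wild type to 798.3, 1117 and 672.7, with bounds of at least 1.63-fold, 2.28-fold and 1.38-fold. Another read 269.6 and 415.6, below the limit on both arrays. The last went the other way, from 489.4, at the limit, to 162. In the deposited signals, 5 of the 6 Fmod probe sets were thus higher on the null-labelled array and 1 was lower, all of them dim.

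Prelp and Omd could hardly be measured. Prelp, a basic member that binds heparan sulfate, read 509.6 and 338.7 at one probe set, where the limit leaves a log2 ratio of -0.059, and 151.8 and 169 at the other. Omd, osteomodulin (osteoadherin), a keratan sulfate member of mineralised tissue, read 60.5 and 358.2, below the limit on both arrays and therefore without a ratio. A low signal shows only that a probe set was not bright.

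Ogn and Podn are the single representatives of their classes. Ogn, osteoglycin (mimecan), which also helps set fibril thickness, had probe sets that disagreed. The bright one read 15942 and 12648, 1.26-fold lower, and the dim one read 1389 and 2127, 1.53-fold higher. The direction for Ogn is therefore unsettled, with a mean log2 ratio of 0.14 and an SD of 0.67. Podn, podocan, which binds collagen and is found in the smooth muscle of arteries, read 784.2 and 2068, 2.64-fold higher (log2 ratio 1.40). Only 1.42% of all measured genes had a higher ratio, but the value rests on 1 probe set with no second one to compare. Podn is also dim in wild type, and the 6657 measured genes with a mean signal of up to 1597, among which it lies, had a median log2 ratio of 0.25.

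**Figure D1:**
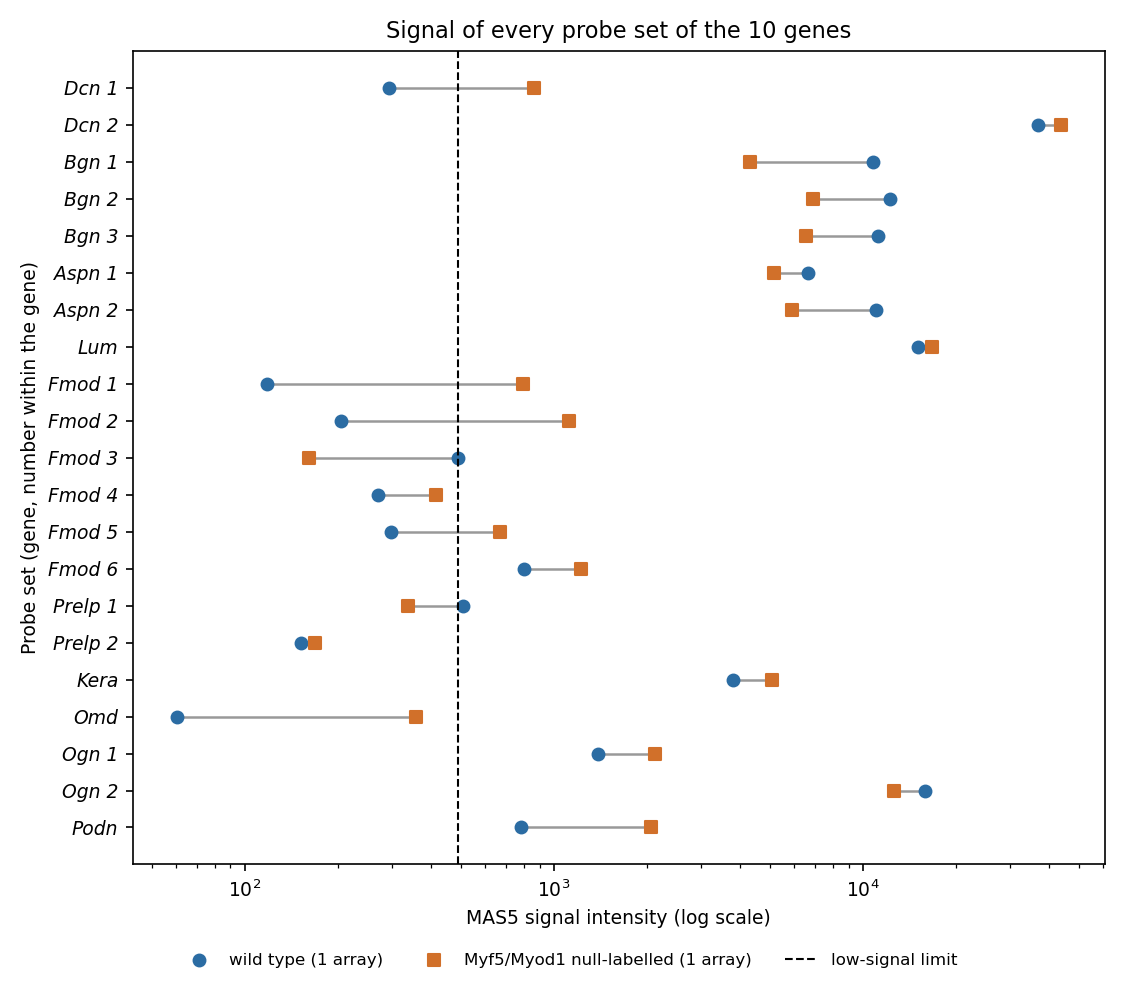
Signal of each of the 21 probe sets of the 10 genes on the wild-type array (circles) and the null-labelled array (squares), on a log axis, with the low-signal limit of 489.1 as a dashed line. All 3 Bgn and both Aspn probe sets lie to the left on the null-labelled array, Podn lies to the right, and most Fmod probe sets cross the limit.

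Read over the family, the deposited signals were higher on the null-labelled array for 13 of 21 probe sets (61.9%) and lower for 8, beside 62.4% higher among all 45037 non-control probe sets. Measured probe sets numbered 18, of which 2 were at least 2-fold higher (1 of Fmod, as a bound, and Podn) and 1 at least 2-fold lower (Bgn). Of the 5 genes with several measured probe sets, 3 kept one direction in all of them (Dcn, Bgn and Aspn), while Fmod and Ogn did not. No share over all measured probe sets, or over all genes with several, stands beside these counts. They are therefore description only. The brightest probe set lay beyond 1 SD of the spread between probe sets, in either direction, for 4 of the 9 measured genes (Bgn, Aspn, Fmod and Podn), and for 33.8% of all measured genes. Of all measured genes, 6.41% had a lower ratio than Aspn and 7.45% a lower ratio than Bgn.

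**Figure D2:**
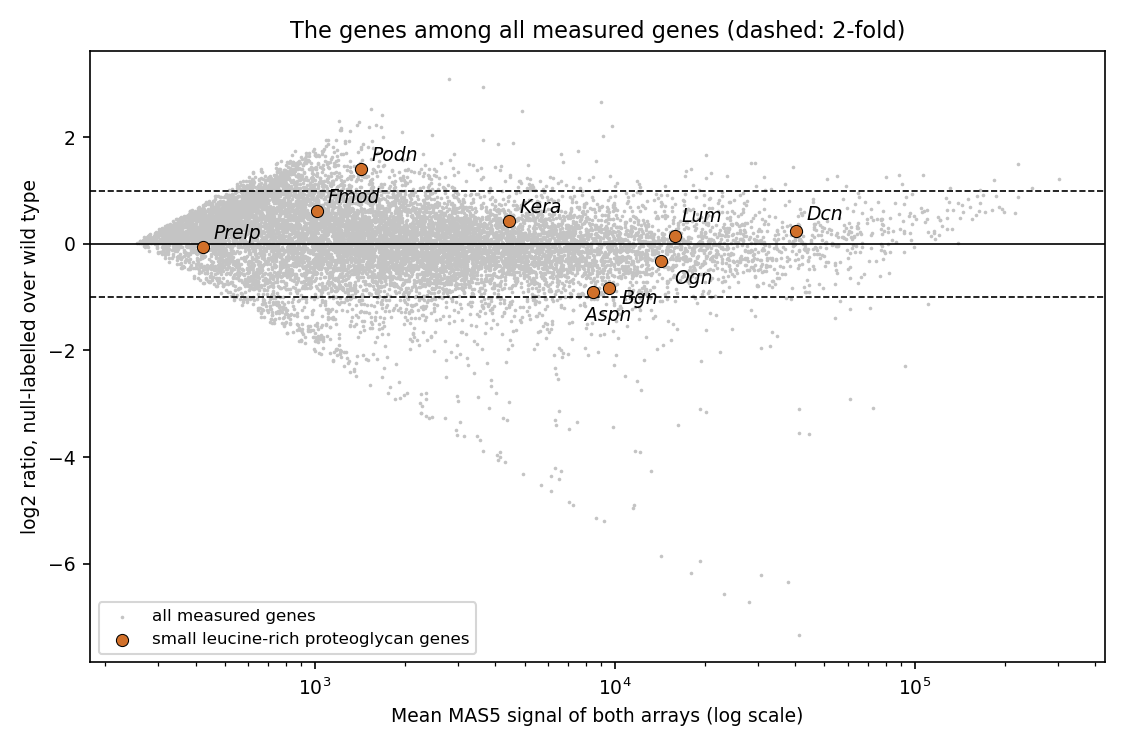
Log2 ratio (null-labelled array over wild-type array) against the mean signal of both arrays (log axis) for 13315 measured genes (grey) and the 9 measured family members (orange), each at its brightest probe set. Podn is the 1 member beyond the dashed 2-fold lines, and Aspn and Bgn lie just inside the lower one.

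Most of the genes lie in chromosomal groups, in which RefSeq lists them as direct protein-coding neighbours. On chromosome 10 the order is Dcn, Lum, Kera and Epyc. The first 3 read slightly higher, with log2 ratios of 0.25, 0.14 and 0.42, and Epyc, epiphycan, a class III member of cartilage, read 632.7 and 576.4 (log2 ratio -0.13). On chromosome 13 the order is Ecm2, Aspn, Omd and Ogn. Aspn and Ogn had log2 ratios of -0.90 and -0.33 at their brightest probe sets, with the direction for Ogn unsettled as above. Their neighbour Ecm2 read 116.4 and 656, at least 1.34-fold higher, from below the limit in wild type. No direction can be read for this group. On chromosome 1 Optc, Prelp and Fmod follow each other. Of these only Fmod, at its brightest probe set, lay above the limit on both arrays, and Optc, opticin, read 313.5 and 304.2. Bgn on chromosome X and Podn on chromosome 4 have no family member beside them. Of 7 further family genes on the array, Epyc, Ecm2 and Optc among them, 4 were measured and 0 were 2-fold apart (median 0.31), and the brightest, Nyx, nyctalopin of the retina, read 614.2 and 700.3.

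The collagens that these proteins coat and the enzymes that finish them were followed next. Of 15 measured genes of fibril collagens and their cross-linking enzymes, 0 were 2-fold apart in either direction, and the median log2 ratio was 0.14, the same as that of the family. Col3a1 and Col1a2, which encode chains of the main fibrils of soft connective tissue, had the highest mean signals and read 1.69-fold and 1.54-fold higher. Their second probe sets had log2 ratios of 0.14 and 0.58, so the size for Col3a1 was not shared. The enzymes that build the sugar chains were mixed. Of 15 measured chondroitin and dermatan sulfate genes, 1 was 2-fold lower and 1 higher (median 0.25). Fam20b, the kinase of the linker that joins chain and core, read 7922 and 3224, 2.46-fold lower, while its dimmer probe set had a log2 ratio of 0.23. Chst12, a chondroitin 4-sulfotransferase, was at least 2.27-fold higher. None of 5 measured keratan sulfate genes was 2-fold apart (median 0.32), and the brightest, B4galt1 and Fut8, read 1.18-fold lower and 1.25-fold higher. The tyrosine sulfotransferases Tpst1 and Tpst2, which act on several class II cores, read 1.02-fold lower and 1.53-fold higher.

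The list of growth factors, receptors and surface proteins tied to the family's signalling had the lowest median of the lists of partners and enzymes, -0.56 over 14 measured genes. Of these, 5 were at least 2-fold lower and 0 higher, beside 5.36% and 6.01% of all measured genes. A ratio below 0 was read for 10 of the 14 and a ratio above 0 for 4. Tgfb2, a ligand of the TGF-beta family, read 4711 and 1499, 3.14-fold lower, with log2 ratios of -1.60 and -0.36 at its dimmer probe sets. Lrp1, an endocytic receptor that takes up decorin, read 1579 and 664.4, 2.38-fold lower, but its second probe set was higher (log2 ratio 0.98). Met, the HGF receptor, which decorin also binds, read 15904 and 6847, 2.32-fold lower. The remaining pair were Tgfbr2, a receptor of TGF-beta (2.07-fold), and Ccn4, a matricellular protein (at least 2.13-fold, with 549.5 and 543.6 at its other probe set). The 4 genes that went the other way were Tgfb1 (at least 1.87-fold higher), Itgb1 (1.52-fold), Igf1r (1.19-fold) and Egfr (1.06-fold). The other Itgb1 probe sets had log2 ratios of 0.76, 0.59 and 1.39, while those of Igf1r and Egfr went both ways. Among 9 measured proteases and enhancers, 0 were 2-fold apart (median 0.039). The brightest were Mmp14, a membrane-bound metalloproteinase (1.59-fold lower), and Pcolce, an enhancer of procollagen processing (1.44-fold lower). The dimmer Mmp14 probe sets disagreed, with log2 ratios of -0.68 and 1.07, each from below the limit on 1 array. The other Pcolce probe set had a log2 ratio of 0.74.

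**Figure D3:**
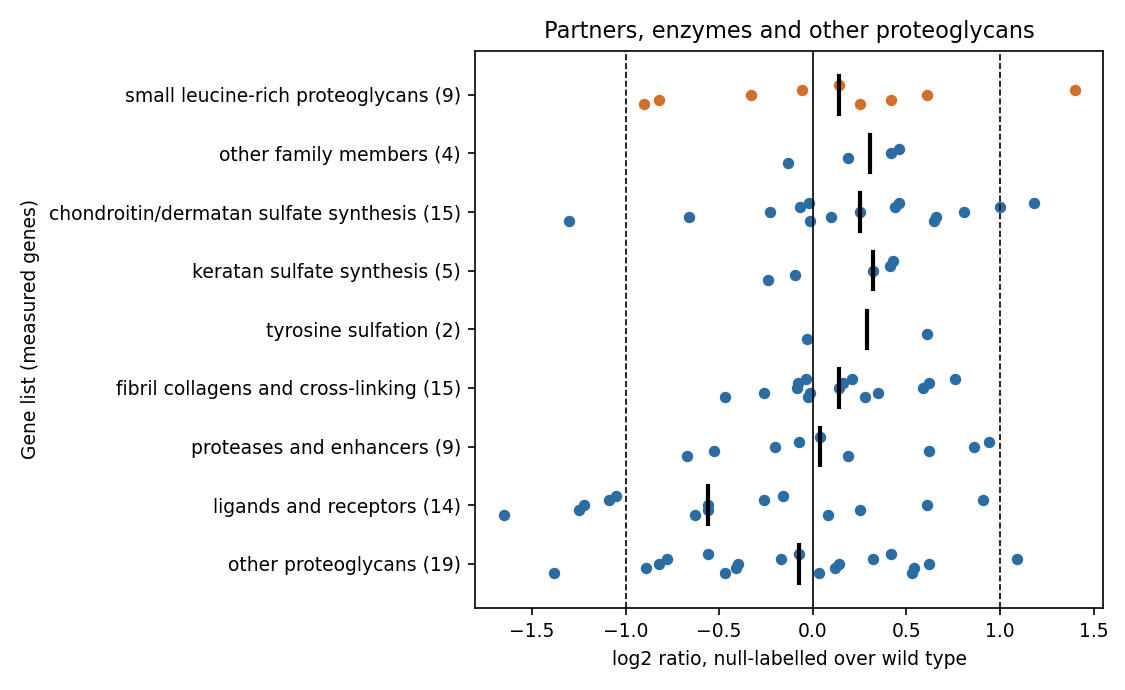
Log2 ratio of each measured gene (points) in the family and in 8 lists of partners, enzymes and other proteoglycans, with the list median as a black bar, the number of measured genes in brackets and 2-fold as dashed lines. The list of ligands and receptors has the lowest median, -0.56, and the family median is 0.14.

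Markers of the cells that could supply these transcripts were read on the same arrays. In bulk tissue, fewer cells of a type and less RNA per cell cannot be told apart. All 12 fibroblast markers were measured, with a summed signal of 347941 in wild type and 437136 in the null-labelled sample. The 3 collagen genes among them made up 254557 and 382203 of it, and the other 9 markers summed to 93385 and 54933. Vim alone was 42082 and 16428 of this remainder. Of the 12 markers, 8 had a ratio below 0 and 4 above it. Past 2-fold were 2 in the lower direction and 0 in the higher (median -0.086), namely Mfap4, an elastic fibre protein (4.09-fold), and Vim, the intermediate filament of mesenchyme (2.56-fold). Pdgfra, the receptor that marks fibroblasts, read 7036 and 6812. Of 6 measured tendon markers 2 were lower and 0 higher (median -0.44), namely Egr1 (4.05-fold), which is also an immediate early gene, and Cilp (3.34-fold). The summed signal over the 7 tendon markers was 22005 and 8422, and 7950 and 4955 without Egr1. Cilp was 3298 and 987.2 of the latter, while Comp, a cartilage and tendon matrix protein, read 1.3-fold higher. The defining factor Scx was at the limit, at 492.4 and 334.9. Another Scx probe set read 146.4 and 535.8. The part of these cells in the ratios of Bgn and Aspn was not tested.

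The remaining marker lists went different ways. All 10 striated muscle markers were at least 2-fold lower, with a summed signal of 373750 and 10032. Of 8 smooth muscle markers 1 was higher and 0 lower (median 0.47), namely Mylk, the myosin light chain kinase (2.83-fold, with log2 ratios of 1.86 and 0.084 at its other probe sets). Cnn1 and Tagln, which encode actin-binding proteins, read 1.69-fold and 1.38-fold lower. The summed signal was 339037 and 676234, and without Mylk and Acta2 it was 92395 and 106775. Of 3 measured mesothelial markers 2 were lower and 0 higher, namely Upk3b (at least 3.23-fold) and Upk1b (2.38-fold), with 44852 and 19467 in sum over 5. Upk1b alone was 40067 and 16855 of this sum. The dimmer Upk1b probe sets were also lower, by unequal amounts (log2 ratios -0.22, -1.22 and -0.65), so the size for Upk1b was not shared. Cartilage markers were dim, with 3 of 10 measured and 0 of them 2-fold apart, Col9a1 at 664.7 and 1079 and Acan at 410.7 and 708.6. The defining collagen gene Col2a1 read 122.5 and 43.7, below the limit on both arrays. Bone markers were dim as well. Of 3 measured, for 2 of which the ratio is a bound, 2 were at least 2-fold higher and 0 lower, namely the phosphatase Alpl (763.4 and 2482, 3.25-fold) and the osteoblast factor Sp7 (at least 2.1-fold), and the matrix gene Ibsp read 17.1 and 602.3, with 1265 and 4364 in sum over 4. Of the connective tissue markers of muscle 4 of 7 were measured, 0 of them 2-fold apart, with Tcf7l2 and Cd34 1.24-fold and 1.12-fold higher. Squamous epithelium had 3 of 8 measured markers lower and 0 higher, led by Sprr1a (4.34-fold), with a median of -0.34. Its summed signal was 379673 and 438267. Krt4, its brightest marker, made up 173385 and 259124 of this and had a log2 ratio of -0.25 at its other probe set. Endothelium had 1 of 4 higher and 0 lower (Emcn, at least 2.19-fold), and enteric neurons and glia 1 of 4 lower and 0 higher (Ret, 2.38-fold). The other Ret probe set read 497.6, near the limit, and 349.5, which leaves a log2 ratio of -0.025. The part of these cell types in the family's ratios was not tested.

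The ratios were recomputed under 8 other settings, not all of which can move each of them. Dcn, Lum, Kera and Podn were above 0, and Bgn and Aspn below 0, in all 9 settings. Part of this was fixed in advance, since a changed limit or an added constant cannot reverse the sign of a ratio. The rules on probe sets cannot act on Lum, Kera or Podn, which have 1 probe set each. Nor could they reverse Dcn, Bgn or Aspn, for each of which all measured probe sets share a sign. For all of these genes only a change of scaling could have reversed the sign. Ogn turned from -0.33 to 0.14 with the median of its probe sets. Bgn lay between -0.91 and -0.66 and Aspn between -0.98 and -0.36, so neither reached 2-fold in any setting. Podn was at 0.56 under a 75th percentile limit, since its wild-type signal is then below the limit, and lay at 1.25 or above in the other 8. Omd had a ratio only with a lower limit, where it was a bound of 1.09, or with none, where it was 2.29. Scaling also moved the background. With loess on signal 938 genes (7.16%) were 2-fold lower and 449 (3.43%) higher, against 714 and 800 as deposited. The median of all measured genes then shifted from 0.086 to -0.021, and Podn at 1.25 remained the 1 member past 2-fold. With quantile normalization the counts were 821 and 560.

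**Figure D4:**
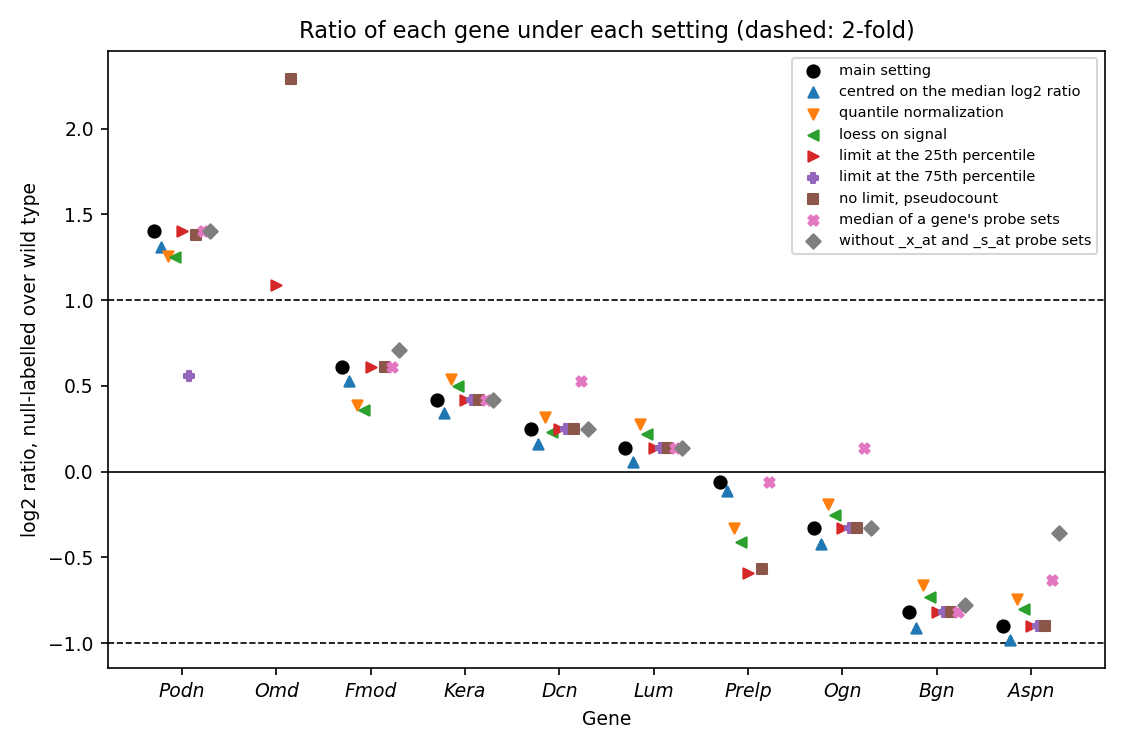
Log2 ratio (null-labelled array over wild-type array) for the 10 genes, with a marker for each of the 9 settings in which the gene was measured (black for the main one, in which Omd has none) and 2-fold as dashed lines. Bgn and Aspn stay between 0 and the lower dashed line, Podn is at 0.56 under a 75th percentile limit, and Ogn crosses 0 with the median of its probe sets.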

How the data were processed

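Total RNA was extracted with Trizol, and biotin-labelled cRNA from 6 µg was hybridized to Affymetrix arrays, per the labels' protocols. The deposited intensities are linear MAS5 signals made by the authors, per the submitters' processing notes. MAS5 turns the probes of a set into a single scaled signal. Its version and parameters are unstated. Each array had a 2% trimmed mean of 1500. There are no detection calls, and depth does not apply: the number of arrays limits the precision.

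Of 45101 probe sets, 64 are controls, 34945 have 1 gene symbol, 932 several and 9160 none here. Symbols from GEO's annotation of the platform, some of them dated, were updated by Entrez ID against RefSeq's GRCm38.p6 table, which held the ID of 34741. A gene took its probe set of highest mean signal. The limit, raised signals and 2-fold counts are as described above, and 2969 genes have only a bound. No test was possible. The text names all 10 members, and in each list up to 3 measured genes with the largest ratio among those 2-fold apart, or else the 2 brightest. Named after their values were seen were Tgfb1, Tgfbr2, Ccn4, Itgb1, Igf1r, Egfr, Pdgfra, Scx, Comp, Cnn1, Tagln, Acta2, Krt4, Col2a1, Ibsp, Ecm2 and Optc. The members and lists were chosen with earlier results of these data known. Alternatives were median centring, quantile normalization, loess (span 0.3), limits at the 25th and the 75th percentile, log2(signal + 16) without a limit, a gene's median probe set, dropping IDs that end in _x_at or _s_at, and 4-fold. The steps that give ratios and counts were checked on simulated data. Its noise was smaller than the spread between probe sets here, and only brighter genes were shifted. The check therefore does not show how reliable the counts are in these data. Python 3.11.15, numpy 2.4.6, pandas 2.3.3, statsmodels 0.14.6 and matplotlib 3.10.9 were used.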

Additional observations from a re-analysis of the deposited data

How the results depend on the processing

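With 1 array per genotype, no replicate could be left out and no paired analysis was possible because neither genotype has a second array. The count of family members at least 2-fold lower was 0 in all 9 alternatives. The count at least 2-fold higher was 1 in the main setting and in 5 alternatives, 2 with the limit at the 25th percentile or with no limit (Podn and Omd), and 0 with the limit at the 75th percentile or with a 4-fold threshold. The members' median log2 ratio lay between 0.058, with centring, and 0.28, with quantile normalization. Over all measured genes, 1232 (7.45%) were lower and 2742 (16.6%) higher under a 25th percentile limit, where 10 members were measured. Under a 75th percentile limit, with 7 members measured, these were 383 (4.80%) and 148 (1.85%). Without any limit, with 10 members, they were 1704 (9.37%) and 3548 (19.5%), and at 4-fold 142 (1.07%) and 21 (0.158%). The members' counts lie near these shares. Signal over the limit bounds what can be said of Fmod, Prelp and Omd, whose probe sets mostly lie near or below it.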

Other observations

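Proteoglycans outside the family were read as well. Of 19 measured genes, 1 was at least 2-fold lower and 1 higher, with a median log2 ratio of -0.071. Gpc1, a glypican anchored to the cell surface, read 2014 and 775.4, 2.6-fold lower, and Bcan, a hyaluronan-binding proteoglycan of brain matrix, was at least 2.13-fold higher from a wild-type signal of 155.4. Sdc1, the epithelial syndecan, read 1.85-fold lower at its brightest probe set, with log2 ratios of -0.71 and -0.19 at its others, and Vcan, versican, read 1.54-fold higher at its brightest and had a log2 ratio of -0.095 at its second. Sdc1 and Vcan were named after their values were seen.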
